A study of Mus musculus with 32 samples.

Results

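The change in gene expression in ischaemic mouse cortex between 2 and 8 h of reperfusion was examined by setting the 4 arrays of cortex taken 8 h after blood flow returned against the 4 arrays taken at 2 h. These 8 arrays, of 32 in the series, were chosen by their labels and not by measured values. All came from the right, infarct-side cortex of C57/Bl6 mice aged 8 to 10 weeks and labelled Gpx1-/-, after 2 h of occlusion of the middle cerebral artery by a suture, a model of stroke. Sham cortex, cortex at 24 h, and striatum under the same 4 conditions (4 arrays each) serve below to place the values. They also entered the normalization and the fit, so they shape every standard error and p-value of the comparison. Gpx1-/- mice lack the selenoprotein glutathione peroxidase 1, which removes hydrogen peroxide, so every array carried the deletion by its label and no wild-type array was among the samples. The growth protocol speaks of male wild-type mice while the titles and the genotype label say Gpx1-/-. The labels do not say which samples came from separate animals, so p-values measure the spread between arrays.

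Levels are log2 intensities of Illumina MouseRef-8 V2 bead arrays after background correction and quantile normalization. A difference is the mean at 8 h minus the mean at 2 h on that log2 scale. It is followed by its standard error (SE) in the limma fit, and each group has n = 4 arrays. The SE and p rest on a spread per gene pooled over all 8 groups (32 arrays), not on the cortex 8 h and 2 h arrays alone. The spread of these groups could differ: Lgals3 had a standard deviation of 1.44 at 8 h and 0.25 at 2 h. A gene was called, that is, rose or fell, at a limma p adjusted by the Benjamini-Hochberg method over 9475 genes below 0.05. Same-numbered arrays shared a slide, as far as their array codes tell, so each slide gave 1 difference of its own. The 8 h arrays all lay at one place on the slides and the 2 h arrays at another, so place and time cannot be told apart.

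On the 8 arrays 10701 to 11935 of 25697 probes were detected, with median raw signals of 75.7 to 88.5. Of 26 measured markers of cortical projection neurons 23 were detected on 8 of 8 arrays and 23 were higher than on the striatal arrays of the same times, by a median of 0.97. The first principal component of the 16 cortex arrays (38.6% of variance) placed 8 h replicates 1 to 3 at 11.1 to 15.1 and the 2 h arrays at -10.5 to -3.72, while 8 h replicate 4 lay at -3.24, beside the 2 h arrays. The second component (16.4%) placed 8 h replicates 1 to 3 at -16.8 to -10.8, 8 h replicate 4 at 8.88 and the 2 h arrays at -14.5 to -5.89. The hypothalamic peptide gene Pmch stood at 9.71 on 8 h replicate 2, against 4.75 to 5.76 on the other 8 h arrays and 4.71 to 5.26 at 2 h, and Hcrt stood at 7.78 there, against 4.70 to 4.88 and 4.82 to 4.91. Calls lost without either array are given beside the genes concerned.

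After a stroke, neurons and glia first switch on immediate early genes, which encode short-lived transcription factors. Astrocytes then turn on an injury programme of secreted acute phase proteins and protease inhibitors, microglia give up the surface receptors of their resting state, and adrenal glucocorticoids act on all these cells through a receptor that binds DNA. The step from 2 to 8 h lies where these phases meet.

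Of 9475 genes 278 were called (2.93%), 138 higher (1.46%) and 140 lower (1.48%) at 8 h. The differences ran from -1.97 to 2.23 with a median size of 0.557, and 25 genes (0.264%) passed at 2-fold or more, 18 higher and 7 lower. The arrays of the 2 times did not overlap for 240 of the 278, against 1036 of all 9475 genes (10.9%), and for 267 of the 278 the 4 slides pointed the same way, against 27.9% of all genes. The count depended on single arrays: it was 167 without 8 h replicate 1, 117 without 8 h replicate 3, and 92, 57 and 95 without 2 h replicates 1, 2 and 3. It also depended on the other groups in the fit, with 82 calls from the 16 cortex arrays alone and 55 from the 8 arrays alone. In 8 fits that each left out 1 array, 41 genes, 23 higher and 18 lower, were called every time. Without 8 h replicate 4 the count was 326, with 194 higher and 132 lower, and 49 at 2-fold or more, and without 8 h replicates 2 and 4 together it was 593. From the authors' processed values 250 genes were higher and 92 lower. Scaling to the 75th percentile alone gave 134 higher and 138 lower, and which step of the authors' processing moved the split was not tested.

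**Figure D1:**
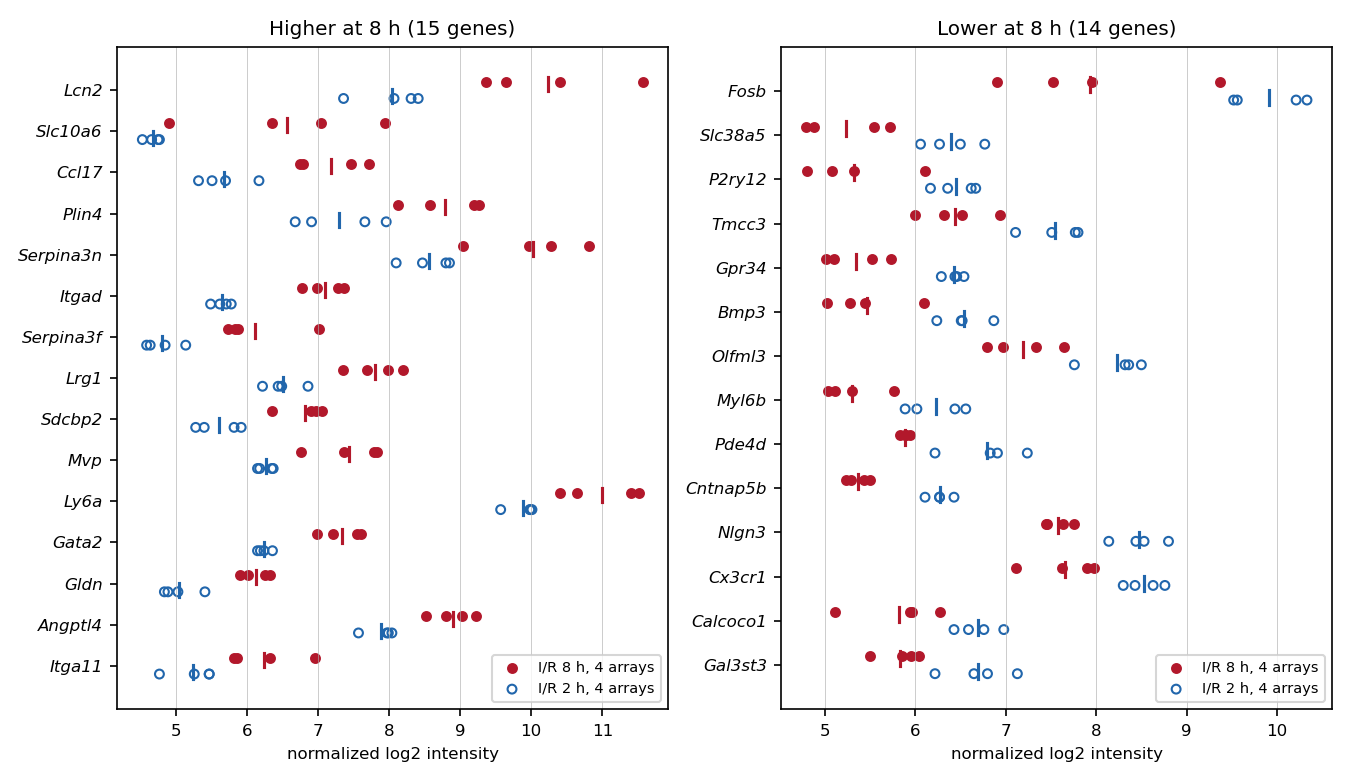
Normalized log2 intensity (horizontal axis) of the 15 genes with the largest rise and the 14 with the largest fall among called genes whose arrays did not overlap, with clone names left out. Filled red points are the 4 arrays at 8 h, open blue points the 4 arrays at 2 h, and short bars the group means. Lcn2 leads the left panel at 9.36 to 11.57 at 8 h, against 7.36 to 8.41 at 2 h, and Fosb the right panel at 6.91 to 9.37, against 9.52 to 10.33.

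Gpx1, the gene named in the genotype, had levels of 10.45, 9.57, 9.97 and 8.97 at 8 h, against 9.22, 8.98, 9.26 and 9.36 at 2 h. It was detected on all 8 arrays, and the groups overlapped through 8 h replicate 4. The difference of 0.53 ± 0.19 did not pass (adjusted p = 0.114), and it passed in 1 of 8 fits that left out 1 array. It was 0.79 without 8 h replicate 4 (adjusted p = 0.0113) and 0.30 without 8 h replicate 1 (adjusted p = 0.400). Which part of the gene the probe covers is not known from the files, so its signal checks nothing about the deletion.

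Some genes of the astrocyte injury programme were among the largest rises. Lcn2, which encodes lipocalin 2, an acute phase protein that binds iron-carrying siderophores, had levels of 10.40, 11.57, 9.64 and 9.36 at 8 h, against 8.07, 7.36, 8.41 and 8.31 at 2 h. All 8 h arrays lay above all 2 h arrays, and the gene rose 4.60-fold (2.20 ± 0.50, adjusted p = 0.0177). Serpina3n, a secreted inhibitor of serine proteases, had levels of 10.81, 10.28, 9.97 and 9.04 at 8 h, against 8.10, 8.47, 8.85 and 8.80 at 2 h, a 2.77-fold rise (1.47 ± 0.39, adjusted p = 0.0354). Replicate 4 was the lowest of the 8 h arrays for both genes.

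Slc10a6, a sodium-dependent carrier of sulphated steroids, had levels of 7.94, 7.04, 6.36 and 4.91 at 8 h, against 4.53, 4.66, 4.77 and 4.75 at 2 h. It was detected on 3 of 4 arrays at 8 h and on 0 of 4 at 2 h, so the rise is a lower bound, at least 1.63-fold (adjusted p = 0.0324). Here 8 h replicate 4 was close to the 2 h arrays and replicate 1 far above them. Serpina3f, a relative of Serpina3n in the same gene cluster, was detected on 3 of 4 and 0 of 4 arrays and rose at least 1.20-fold (adjusted p = 0.00209). The Serpina3 genes of the mouse are near copies of each other. In cortex at 24 h the Serpina3n probe averaged 11.47, while the Serpina3f probe averaged 4.58 and was detected on 0 of 4 arrays. Whether the probes tell all genes of the family apart was not tested.

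The list of reactive astrocyte genes, 30 measured, held 4 rises and 0 falls, against 1.46% and 1.48% of all genes. The other 26 did not pass. The rises were Lcn2, Slc10a6, Serpina3n and Fkbp5. The median difference of the list was 0.654, against -0.001 over all genes, and 28 of 30 differences were positive. The medians on slides 1 to 4 were 1.22, 0.94, 0.47 and -0.155, so slide 4, which holds 8 h replicate 4, did not show the shift. Without that array 7 members rose and the median was 0.897. Without 8 h replicate 1, 2 or 3 only 2 rose each time, with medians of 0.368, 0.587 and 0.620. Classical members that did not pass were Gfap, the astrocyte intermediate filament (0.49, adjusted p = 0.329), Vim, a second filament protein (0.61, adjusted p = 0.306), and Timp1, an inhibitor of matrix metalloproteinases (1.00, adjusted p = 0.218). Genes of resting astrocytes gave 0 calls among 27 measured, with a median of 0.04.

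Among these listed astrocyte genes Lcn2 passed in 7 of 8 fits that left out 1 array, with adjusted p = 0.0762 without 2 h replicate 2. Serpina3f, which is not in the reactive astrocyte list, passed in 8 of 8. Serpina3n and Slc10a6 passed in 2 of 8, their highest adjusted p of 0.12 coming without 8 h replicate 1, and both passed without 8 h replicate 4 (differences of 1.80 and 2.44). Without 8 h replicate 2 neither passed (adjusted p = 0.0649 for Serpina3n and 0.0638 for Slc10a6).

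Genes listed as responding to glucocorticoids are given next, and this list shares Lcn2 and Fkbp5 with the reactive astrocyte list. Plin4, which coats lipid droplets, had levels of 8.58, 9.26, 8.13 and 9.20 at 8 h, against 6.68, 6.91, 7.66 and 7.96 at 2 h. The groups did not overlap and the gene rose 2.81-fold (1.49 ± 0.33, adjusted p = 0.0164). Fkbp5, a cochaperone that holds the glucocorticoid receptor inactive, had levels of 9.17, 9.50, 9.20 and 9.47 at 8 h, against 8.26, 8.17, 8.61 and 8.61 at 2 h, a 1.90-fold rise (0.92 ± 0.19, adjusted p = 0.0106). Replicate 4 was as high as the other 8 h arrays for both. Angptl4, a secreted inhibitor of lipoprotein lipase, rose 2.01-fold (1.00 ± 0.23, adjusted p = 0.0177).

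The list of glucocorticoid response genes, 28 measured, held 5 rises and 1 fall, against 1.46% and 1.48% of all genes. The other 22 did not pass, and the median of the list was 0.143. The rises were Lcn2, Plin4, Angptl4, Fkbp5 and Xdh, the last an enzyme of purine breakdown (0.77 ± 0.17, adjusted p = 0.0162) that lies outside the rule for naming genes. The member that fell was Per1, a clock gene with a strong glucocorticoid response, at 9.72, 9.31, 9.48 and 9.57 at 8 h, against 10.12, 10.05, 10.21 and 9.68 at 2 h (-0.49 ± 0.13, adjusted p = 0.0330). Its groups overlapped in 1 pair of arrays. Other standard targets of the receptor did not pass. Tsc22d3, which encodes the anti-inflammatory protein GILZ, differed by 0.05 (adjusted p = 0.853), and Sgk1, a kinase of ion transport, by 0.33 (adjusted p = 0.245). In each of the 4 fits without 1 of the 8 h arrays 5 members rose, and the fall of Per1 was lost without replicate 2 (adjusted p = 0.0776) or 3. Plin4 passed in 6 of 8 fits that left out 1 array (highest adjusted p = 0.0700, without 2 h replicate 2), Fkbp5 and Angptl4 in 7 of 8 (0.0549 and 0.0774 without 2 h replicate 2), and Per1 in 3 of 8 (0.109 without 2 h replicate 3).

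Promoter windows of named genes were searched for the letters of the glucocorticoid receptor palindrome, ACANNNTGT, which read the same on both strands. Windows run from 250 bases before to 50 bases after a RefSeq start site on GRCm38.p6, and 41 of 53 named genes had one. The 6 named genes with a match are printed, 5 that rose and 1 that fell, because they show how the same letters stand before genes that moved in opposite directions. Capitals mark the match, and each window reads 5′ to 3′ on the strand of its gene.
Lcn2: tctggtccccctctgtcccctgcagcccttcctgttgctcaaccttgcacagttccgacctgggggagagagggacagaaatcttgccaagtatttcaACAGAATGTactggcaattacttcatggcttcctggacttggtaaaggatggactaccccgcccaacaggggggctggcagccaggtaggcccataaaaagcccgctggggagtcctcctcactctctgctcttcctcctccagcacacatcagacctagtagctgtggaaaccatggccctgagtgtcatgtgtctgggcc
Slc10a6: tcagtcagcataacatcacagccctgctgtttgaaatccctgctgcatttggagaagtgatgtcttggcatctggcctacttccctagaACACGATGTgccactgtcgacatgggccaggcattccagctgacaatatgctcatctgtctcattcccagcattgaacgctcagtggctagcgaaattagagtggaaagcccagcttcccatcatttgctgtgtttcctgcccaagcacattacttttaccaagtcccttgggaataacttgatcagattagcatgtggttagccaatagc
Serpina3n: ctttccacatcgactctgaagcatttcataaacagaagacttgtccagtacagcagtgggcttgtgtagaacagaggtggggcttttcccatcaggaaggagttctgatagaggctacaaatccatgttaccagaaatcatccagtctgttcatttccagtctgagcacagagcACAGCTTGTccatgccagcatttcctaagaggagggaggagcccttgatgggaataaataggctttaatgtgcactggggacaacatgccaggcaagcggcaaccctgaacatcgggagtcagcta
Serpina3f: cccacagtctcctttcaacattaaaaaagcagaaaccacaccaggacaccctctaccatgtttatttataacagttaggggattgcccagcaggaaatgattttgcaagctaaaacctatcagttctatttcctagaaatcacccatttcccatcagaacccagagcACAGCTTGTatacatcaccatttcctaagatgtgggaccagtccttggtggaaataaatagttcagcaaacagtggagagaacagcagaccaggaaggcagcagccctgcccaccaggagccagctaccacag
Fcgr3: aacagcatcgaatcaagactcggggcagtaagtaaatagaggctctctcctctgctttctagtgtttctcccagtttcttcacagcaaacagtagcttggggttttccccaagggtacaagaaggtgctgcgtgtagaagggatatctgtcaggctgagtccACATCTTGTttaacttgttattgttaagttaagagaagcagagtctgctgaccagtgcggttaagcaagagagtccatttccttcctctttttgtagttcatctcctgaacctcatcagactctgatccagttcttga
Dusp6: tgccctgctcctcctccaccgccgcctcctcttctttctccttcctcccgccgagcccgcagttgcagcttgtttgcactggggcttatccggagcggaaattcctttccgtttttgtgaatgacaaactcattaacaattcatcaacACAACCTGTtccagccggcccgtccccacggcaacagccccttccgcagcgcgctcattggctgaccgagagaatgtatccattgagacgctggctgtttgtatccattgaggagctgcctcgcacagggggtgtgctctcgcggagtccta

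The Lcn2 window lies at chr2:32387690-32387989 (minus strand), that of Slc10a6 at chr5:103629354-103629653 (minus strand), and that of Serpina3n at chr12:104406458-104406757 (plus strand). The Serpina3f window lies at chr12:104214294-104214593 (plus strand), that of Fcgr3 at chr1:171059354-171059653 (minus strand) and that of Dusp6 at chr10:99262981-99263280 (plus strand). The match began 152 bases before the start site in Lcn2, 161 in Slc10a6, 76 in Serpina3n, 83 in Serpina3f, 88 in Fcgr3 and 102 in Dusp6. Serpina3n and Serpina3f carried the same 9 letters. Serpina3f and Fcgr3 each had 2 windows, of which the first is shown.

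The palindrome was present in 11 of 101 genes that rose and had a window (10.9%), in 5 of 103 that fell (4.85%), in 392 of 7523 tested genes with a window (5.21%) and in 6.85% of all 32851 windows. The windows of Fkbp5 and Plin4 did not hold these letters. For comparison, an NF-kB motif (GGG, any 2 bases, TTTCC) was in 3.96%, 1.94% and 1.91% of the genes that rose, fell and were tested, the ETS core GGAAGT in 41.6%, 30.1% and 31.2%, the C/EBP letters TTGCNNAA in 10.9%, 17.5% and 10.1%, and the STAT palindrome TTCNNNGAA in 7.92%, 4.85% and 8.36%. The AP-1 letters TGANTCA were in 8.91%, 3.88% and 6.38% and the CRE core TGACG in 27.7%, 39.8% and 35.5%. All 7 were searched on both strands, matches may overlap, and a match is only a run of letters in this window.

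Of 33 measured genes of resting microglia 8 fell, against 1.48% of all genes. P2ry12, the receptor by which microglia sense ATP and ADP, had levels of 4.81, 5.08, 5.32 and 6.11 at 8 h, against 6.36, 6.17, 6.67 and 6.62 at 2 h. The groups did not overlap, the gene was detected on 1 of 4 arrays at 8 h and on 4 of 4 at 2 h, and the fall was 2.18-fold (-1.12 ± 0.26, adjusted p = 0.0180). Gpr34, a lysophosphatidylserine receptor, had levels of 5.02, 5.52, 5.10 and 5.73 at 8 h, against 6.29, 6.46, 6.54 and 6.44 at 2 h. With 0 of 4 arrays detected at 8 h it was at least 1.61-fold lower there (adjusted p = 0.0132), and its second probe differed by -1.21 (adjusted p = 0.00757).

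Olfml3, a secreted protein of microglia, had levels of 6.97, 7.64, 7.34 and 6.80 at 8 h, against 8.32, 8.50, 8.36 and 7.76 at 2 h, a 2.07-fold fall (-1.05 ± 0.20, adjusted p = 0.00717). Cx3cr1, the receptor for neuronal fractalkine, had levels of 7.90, 7.98, 7.62 and 7.11 at 8 h, against 8.76, 8.63, 8.30 and 8.43 at 2 h, a 1.84-fold fall (-0.88 ± 0.21, adjusted p = 0.0229). For both, 8 h replicate 4 was the lowest array, so these falls were not weakest there, whereas for P2ry12 and Gpr34 it was the highest of the 8 h arrays.

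In the homeostatic microglia list 0 genes rose and 25 did not pass, and 10 of the 33 differences were positive. The other falls, named here although the rule stops at 4 a list, were Selplg, a selectin ligand (-0.74), Crybb1 (-0.68), Tmem119 (-0.68) and Csf1r, the receptor that keeps microglia alive (-0.59), with adjusted p of 0.0150, 0.0177, 0.0164 and 0.0183. The list's median was -0.12, with -0.20, -0.02, -0.22 and -0.15 on slides 1 to 4, since many microglial genes did not shift: the complement genes C1qa and C1qc differed by 0.05 and -0.04 and Trem2, a lipid receptor, by -0.12. Without 8 h replicate 1 only 3 members fell, against 9 without replicate 2 and 6 without replicate 3. Without replicate 4, 7 members fell and 1 rose. The riser was Gpr84, a receptor for medium-chain fatty acids, at 7.60, 6.73, 7.35 and 4.74 at 8 h, against 4.73, 4.73, 4.62 and 4.80 at 2 h. It did not pass on all arrays (adjusted p = 0.051) and gave adjusted p = 0.00756 without that array. In tissue, fewer cells of a type and less RNA per cell cannot be told apart. Gpr34 and Olfml3 passed in 8 of 8 fits that left out 1 array, P2ry12 in 6 of 8 (highest adjusted p = 0.0596, without 8 h replicate 1) and Cx3cr1 in 4 of 8 (0.0790 without 2 h replicate 1, 0.0626 without 8 h replicate 4).

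Markers of phagocyte activation and recruitment rose in a few members. Itgad, the integrin subunit alpha D of myeloid cells, had levels of 7.36, 7.28, 6.98 and 6.77 at 8 h, against 5.62, 5.78, 5.71 and 5.49 at 2 h, where it was detected on 0 of 4 arrays. It was at least 2.36-fold higher at 8 h (adjusted p = 0.00713) and passed in 8 of 8 fits that left out 1 array. Ccl17, a chemokine for cells that carry CCR4, had levels of 6.79, 6.75, 7.47 and 7.72 at 8 h, against 5.51, 5.32, 5.70 and 6.17 at 2 h, a 2.84-fold rise (1.51 ± 0.26, adjusted p = 0.00209) from a level detected on 1 of 4 arrays at 2 h. Its highest array was 8 h replicate 4, and it passed in 8 of 8 fits.

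Lgals3, which encodes galectin 3, a lectin of activated phagocytes, had the largest rise of all called genes, at 10.02, 8.66, 8.72 and 6.54 at 8 h, against 6.03, 6.14, 6.60 and 6.24 at 2 h (2.23 ± 0.60, 4.69-fold, adjusted p = 0.0376). Replicate 4 overlapped the 2 h arrays. Without it the difference was 2.88 (adjusted p = 0.00745), and this was the single fit of 8 in which Lgals3 passed, with adjusted p = 0.0622 without 8 h replicate 2 and a highest of 0.136 without 8 h replicate 1. Fcgr3, a receptor for IgG, had levels of 8.55, 8.49, 8.39 and 8.33 at 8 h, against 7.36, 7.61, 7.69 and 7.91 at 2 h, a 1.74-fold rise (adjusted p = 0.0177). Its groups did not overlap, and it passed in 6 of 8 such fits (highest adjusted p = 0.0675, without 2 h replicate 1).

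Of 26 measured phagocyte activation genes 2 rose, 0 fell and 24 did not pass (median 0.316). Over all genes 1.46% rose and 1.48% fell, and lists with 1 or 2 calls are not read as differing from that share. In that list 5 genes rose without 8 h replicate 4 and 1 without replicate 1, 2 or 3, with a median of 0.206 without replicate 1. Of 25 cytokines and chemokines 1 rose, Ccl17, with a median of 0.282 that ran from 1.23 on slide 1 to -0.30 on slide 4 and was -0.169 without 8 h replicate 1. Of 24 interferon-stimulated genes 1 rose, Eif2ak2, the kinase PKR (0.57 ± 0.15, adjusted p = 0.0294), with a median of 0.301 and 21 positive differences, with 4 rises without 8 h replicate 4 and 0 without replicate 1 or 3. Eif2ak2 passed in 2 of 8 such fits (highest adjusted p = 0.103, without 8 h replicate 3). The 22 genes of NF-kB feedback, the 16 of the gp130 and STAT3 axis, the 18 of endothelial activation and the 16 of antigen presentation held 0 calls, with medians of 0.171, 0.067, 0.254 and -0.027.

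Markers of blood-borne cells were read in the same way. Of 16 measured neutrophil and monocyte markers 2 rose, Lcn2 and Ly6c1, which astrocytes and endothelium also express. Of all genes 1.46% rose. The neutrophil genes S100a8 and S100a9 differed by -0.66 (adjusted p = 0.745) and -0.70 (adjusted p = 0.705), and 5 of the 16, among them Slpi and Chil3, were detected on 0 of 8 arrays. The summed linear level of the list was 2100 to 5330 at 8 h, against 1310 to 2520 at 2 h, and its part in the results was not tested. Of 4 haemoglobin and erythroid genes 0 were called, with a median of -1.44. Hba-a1 had levels of 9.69, 12.86, 8.76 and 10.73 at 8 h, against 11.29, 13.15, 13.67 and 11.67 at 2 h (adjusted p = 0.310), lower at 8 h on 4 of 4 slides but with wide overlap. Only 2 of the lymphocyte markers were measured, with 0 calls.

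Of the 15 largest rises several belonged to no list above. Gata2, a transcription factor of blood and vessel cells, had levels of 7.21, 7.55, 7.61 and 6.98 at 8 h, against 6.24, 6.36, 6.15 and 6.19 at 2 h, a 2.15-fold rise (1.10 ± 0.19, adjusted p = 0.00209). Sdcbp2, the scaffold protein syntenin 2, had levels of 6.36, 7.06, 6.97 and 6.90 at 8 h, against 5.82, 5.28, 5.92 and 5.40 at 2 h, a 2.32-fold rise (adjusted p = 0.00597) from a level detected on 1 of 4 arrays at 2 h. Both passed in 8 of 8 fits that left out 1 array, and groups without overlap were a condition of naming them. Mvp, the major vault protein, had levels of 7.83, 7.79, 7.37 and 6.76 at 8 h, against 6.15, 6.35, 6.37 and 6.18 at 2 h, a 2.26-fold rise (adjusted p = 0.0323) that passed in 1 of 8 such fits (adjusted p = 0.0661 without 8 h replicate 2, and at most 0.0945, without replicate 1).

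Itga11, a collagen-binding integrin subunit, and Gldn, an adhesion protein known from the nodes of peripheral nerve, were detected on 4 of 4 arrays at 8 h and on 0 of 4 at 2 h. In sham cortex Itga11 was detected on 4 of 4 arrays and Gldn on 0 of 4. The mean of Itga11 was 5.94 in sham, 5.24 at 2 h and 6.24 at 8 h, so its detection was lost at 2 h and had returned at 8 h. Itga11 was at least 1.30-fold higher at 8 h (adjusted p = 0.0104) and Gldn at least 1.20-fold (adjusted p = 0.0278). Itga11 passed in 7 of 8 fits that left out 1 array and Gldn in 4 (highest adjusted p of 0.0569 and 0.0887, both without 2 h replicate 2).

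Endothelial genes moved both ways. Ly6a, the surface protein Sca-1, had levels of 11.52, 11.41, 10.65 and 10.40 at 8 h, against 9.57, 10.01, 9.98 and 9.99 at 2 h, a 2.16-fold rise (1.11 ± 0.25, adjusted p = 0.0158). Ly6c1, its relative on brain endothelium, rose 1.86-fold (0.90 ± 0.18, adjusted p = 0.00776) and passed in 8 of 8 fits that left out 1 array. Sox18, a transcription factor of vessels, rose 1.84-fold (0.88 ± 0.22, adjusted p = 0.0271) with 1 of 4 arrays detected at 2 h, and Slco1c1, the thyroid hormone carrier of the blood-brain barrier, fell to 8.28, 8.24, 7.97 and 7.82 at 8 h, against 8.90, 9.10, 8.93 and 8.66 at 2 h (-0.82 ± 0.18, adjusted p = 0.0131).

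Of 26 measured endothelial and barrier markers 3 rose and 1 fell, against 1.46% and 1.48% of all genes. Their median was 0.207, and the 4 slides gave 0.080 to 0.230. The summed level of the list was 12100 to 14600 at 8 h, against 11000 to 11400 at 2 h. Lrg1, an acute phase glycoprotein made by vessels among other sources, had levels of 7.69, 7.99, 7.35 and 8.19 at 8 h, against 6.22, 6.44, 6.86 and 6.49 at 2 h, a 2.47-fold rise (1.30 ± 0.29, adjusted p = 0.0176). Ly6a and Lrg1 passed in 6 of 8 fits that left out 1 array, each with a highest adjusted p of 0.0583 without 2 h replicate 1, Slco1c1 in 7 of 8 (0.0588 without 2 h replicate 2) and Sox18 in 4 of 8 (0.103 without 2 h replicate 3).

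Of the immediate early genes Fosb and Dusp6 fell. Fosb, a partner in the AP-1 transcription factor, had levels of 7.95, 7.52, 9.37 and 6.91 at 8 h, against 10.21, 9.56, 10.33 and 9.52 at 2 h. The groups did not overlap, and the 3.91-fold fall was the largest of all called genes (-1.97 ± 0.45, adjusted p = 0.0184). Dusp6, a phosphatase that switches off the kinase ERK, had levels of 11.08, 10.29, 11.18 and 10.36 at 8 h, against 11.53, 11.56, 11.79 and 11.20 at 2 h, a 1.73-fold fall (-0.79 ± 0.21, adjusted p = 0.0394), and its other 2 probes differed by -0.79 (adjusted p = 0.134) and -0.88 (adjusted p = 0.0335).

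Of 24 measured immediate early genes 2 fell, 0 rose and 22 did not pass, with a median of -0.368 and 20 negative differences. Of all genes 1.48% fell. Without 8 h replicate 4 the median was -0.174 and 1 gene fell. The slide medians were -0.075, -0.475, -0.605 and -0.48. Fos itself had levels of 10.77, 10.17, 10.24 and 7.94 at 8 h, against 11.24, 10.96, 12.05 and 10.02 at 2 h (-1.29, adjusted p = 0.214), and Npas4, which only neurons induce, differed by -1.55 (adjusted p = 0.268) with 2 h levels spread from 6.25 to 11.80. Arc, a synaptic gene, differed by -0.27 (adjusted p = 0.825). Atf3, an injury transcription factor, had levels of 8.85, 7.63, 8.11 and 4.66 at 8 h, against 7.40, 7.51, 7.20 and 6.09 at 2 h (0.26, adjusted p = 0.888), so 8 h replicates 1 to 3 were above and replicate 4 below the 2 h arrays. Fosb passed in 6 of 8 fits that left out 1 array (highest adjusted p = 0.0583, without 2 h replicate 1) and Dusp6 in 3 of 8 (0.116 without 2 h replicate 3). Dusp6 also did not pass without 8 h replicate 2 (adjusted p = 0.0983) or 4 (adjusted p = 0.0885).

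Among the remaining falls were single genes of neurons and oligodendrocytes. Nlgn3, the postsynaptic adhesion protein neuroligin 3, had levels of 7.45, 7.63, 7.46 and 7.76 at 8 h, against 8.44, 8.80, 8.53 and 8.14 at 2 h, a 1.86-fold fall (-0.90 ± 0.16, adjusted p = 0.00369). Bmp3, a ligand of the TGF-beta family, had levels of 5.45, 5.28, 6.10 and 5.03 at 8 h, against 6.51, 6.52, 6.87 and 6.24 at 2 h (-1.07 ± 0.18, adjusted p = 0.00209), and was detected on 1 of 4 arrays at 8 h. Gria2, the AMPA receptor subunit that blocks calcium entry, had levels of 11.40, 11.33, 11.32 and 11.55 at 8 h, against 11.93, 11.80, 11.82 and 11.83 at 2 h, a small fall on 4 of 4 slides (-0.44 ± 0.12, adjusted p = 0.0446) that its second probe did not pass (-0.29, adjusted p = 0.314).

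Ugt8a, the enzyme that makes the myelin lipid galactosylceramide, had levels of 8.64, 8.90, 8.51 and 8.58 at 8 h, against 9.37, 9.67, 9.33 and 9.16 at 2 h, a 1.65-fold fall (-0.72 ± 0.15, adjusted p = 0.0101). All 8 h arrays lay below all 2 h arrays.

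The other named falls were those of Slc38a5, an amino acid transporter (at least 1.57-fold lower, with 0 of 4 arrays detected at 8 h), Tmcc3, a coiled-coil membrane protein, at 6.32, 6.52, 6.94 and 6.00 at 8 h, against 7.80, 7.51, 7.77 and 7.11 at 2 h, Myl6b, a myosin light chain (-0.92), Pde4d, a cyclic AMP phosphodiesterase (-0.91), Cntnap5b, a neuronal adhesion protein (at least 1.44-fold lower, with 0 of 4 detected), Calcoco1 (-0.87) and Gal3st3, a sulphotransferase (-0.86), with adjusted p of 0.00893 to 0.0389. Bmp3, Nlgn3, Tmcc3 and Cntnap5b passed in 8 of 8 fits that left out 1 array, Ugt8a in 7 of 8, Slc38a5 and Calcoco1 in 3 of 8 and Gria2 in 1 of 8, with highest adjusted p of 0.0549 for Ugt8a without 2 h replicate 2, 0.105 for Slc38a5 without 8 h replicate 1, 0.1495 for Calcoco1 without 8 h replicate 3 and 0.115 for Gria2 without 2 h replicate 1 (0.0773 without 8 h replicate 2).

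Pde4d passed in 6 of 8 such fits, Gal3st3 in 4 and Myl6b in 3, with highest adjusted p of 0.0592, 0.107 and 0.116. Myl6b, detected on 1 of 4 arrays at 8 h, did not pass without 8 h replicate 4 (adjusted p = 0.0663).

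Few members of the neuronal lists were called, and of all genes 1.46% rose and 1.48% fell. Of 37 pan-neuronal and synaptic genes 1 fell, with a median of -0.176 and 32 negative differences, and the summed level was 127000 to 148000 at 8 h, against 148000 to 152000 at 2 h. The 38 ion channel genes, the 26 markers of cortical projection neurons and the 19 of GABAergic interneurons held 0 calls, with medians of -0.213, -0.283 and 0.015. Of 28 myelin and oligodendrocyte genes 2 fell (median -0.138). The 24 striatal neuron markers held 0 calls, but their slide medians spread from -0.79 on slide 1 to 0.25 on slide 4, with a summed level of 14500 to 24900 at 8 h, against 21500 to 24400 at 2 h, and the part of that spread in the results was not tested.

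Single genes of DNA replication, the proteasome and RNA binding rose with little spread. Mcm4, a subunit of the replicative helicase, had levels of 9.04, 8.99, 8.88 and 8.99 at 8 h, against 8.39, 8.31, 8.41 and 8.33 at 2 h, a 1.53-fold rise (0.62 ± 0.09, adjusted p = 0.000734). Psma7, a subunit of the proteasome core, had levels of 10.61, 10.56, 10.71 and 10.72 at 8 h, against 10.29, 10.17, 10.29 and 10.29 at 2 h (0.39 ± 0.08, adjusted p = 0.00852). Both passed in 8 of 8 fits that left out 1 array. Rbm3 and Pcsk4 are singled out for the smallest adjusted p of the comparison, outside the naming rule. Rbm3, a cold-induced RNA-binding protein, had levels of 11.15, 11.23, 11.42 and 11.30 at 8 h, against 10.54, 10.34, 10.27 and 10.67 at 2 h (0.82 ± 0.11, adjusted p = 0.000253), and Pcsk4, a proprotein convertase, differed by 0.88 ± 0.12 with the same adjusted p.

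Of 31 proteasome subunits 3 rose, 0 fell and 28 did not pass (median 0.153, 26 positive), the others being Psmd5, an assembly chaperone (0.57, adjusted p = 0.0310), and Psmc2, an ATPase (0.31, adjusted p = 0.0342). Of 41 genes of ribosome biogenesis 2 rose, Gnl3, nucleostemin (0.49, adjusted p = 0.0205), and Nop56, a nucleolar protein (0.41, adjusted p = 0.0329), with a median of 0.220 and 37 positive differences. Of 25 heat shock genes 1 rose, Hspa9, the mitochondrial chaperone mortalin (0.38, adjusted p = 0.0330). Of 30 genes of the unfolded protein and integrated stress response Sesn2, a stress-induced inhibitor of mTORC1, rose (0.90, adjusted p = 0.0397) and Pdia4, a disulphide isomerase, fell (-0.41, adjusted p = 0.0278). Of 35 p53 and apoptosis genes 2 rose, Sesn2 and Pmaip1, the death protein NOXA, at 6.72, 6.38, 7.08 and 6.01 at 8 h, against 5.91, 5.48, 5.78 and 5.90 at 2 h (0.78 ± 0.18, adjusted p = 0.0188). Psmd5, Nop56, Hspa9 and Sesn2 passed in 3 of 8 fits that left out 1 array, Psmc2 in 2, Gnl3 in 4 and Pdia4 and Pmaip1 in 5, with highest adjusted p of 0.0836 to 0.152. Pdia4 had adjusted p = 0.0530 without 8 h replicate 4. Sesn2 was detected on 1 of 4 arrays at 2 h and Pmaip1 on 2 of 4. Without 8 h replicate 1 none of the ribosome biogenesis, p53 or heat shock lists held a rise. Over all genes 1.46% rose and 1.48% fell, and lists with 1 or 2 calls are not read as differing from that share.

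The remaining lists held at most 1 call each. Of 31 cholesterol genes 1 fell, Mvd of the mevalonate pathway, at 7.68, 7.50, 7.90 and 6.90 at 8 h, against 8.22, 8.08, 8.15 and 8.18 at 2 h (-0.66 ± 0.16, adjusted p = 0.0244, and 0.0698 without 8 h replicate 4), with a list median of -0.101 and 24 negative differences. The 37 NRF2, glutathione and thioredoxin genes, the pathway closest to the deleted enzyme, held 0 calls (median 0.11), as did 40 matrix genes (0.238, with 31 positive differences), 33 hypoxia and glycolysis genes (-0.07), 43 respiratory chain genes (0.033), 16 pericyte genes (-0.068), 12 oligodendrocyte precursor genes (-0.195), 14 choroid plexus genes (0.163) and 12 hypothalamic genes (0.101).

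**Figure D2:**
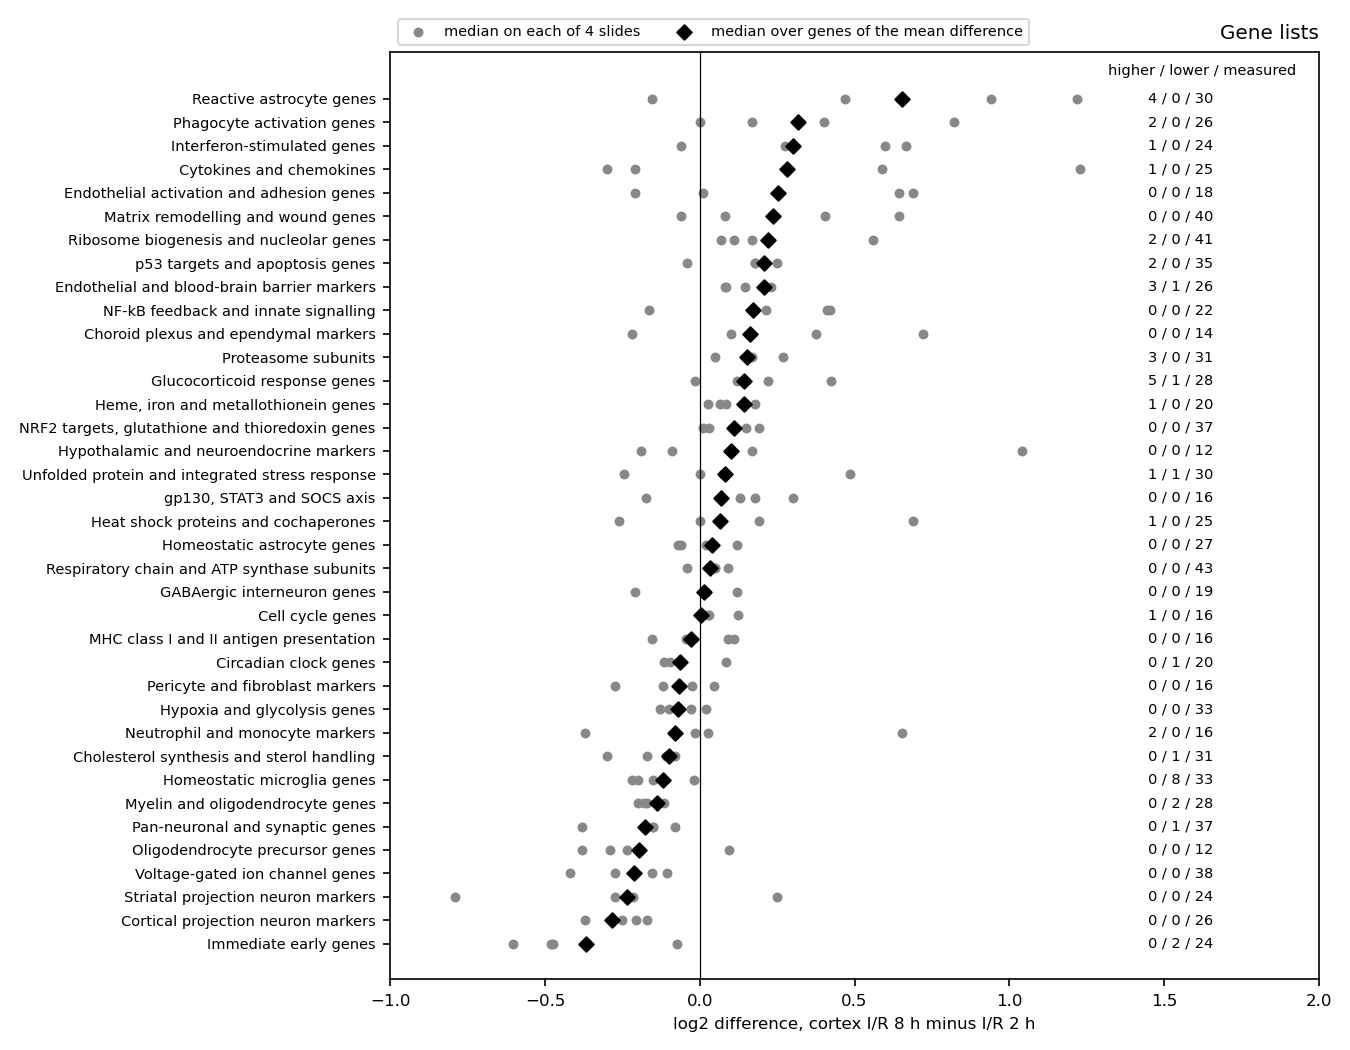
Median log2 difference, 8 h minus 2 h, of each gene list with at least 5 measured members (vertical axis, ordered by the median). Black diamonds are the list's median and grey points the medians on each of the 4 slides, and the numbers at the right are members higher, lower and measured. The reactive astrocyte list stands highest at 0.654 with slide medians of -0.155 to 1.22, and the immediate early genes lowest at -0.368.

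The course over all cortex groups places these genes. These comparisons share the 2 h or the 8 h arrays with the step, so levels are given, with a p only for 2 h against sham where stated. In the order sham, 2 h, 8 h and 24 h, mean Fosb levels were 7.55, 9.90, 7.94 and 6.30, so the 8 h mean was near sham. Mean P2ry12 levels were 6.85, 6.45, 5.33 and 5.78, and mean Cx3cr1 levels were 8.69, 8.53, 7.65 and 8.87, and Cx3cr1 was lowest at 8 h. P2ry12 was detected on 1 of 4 arrays at 8 h and on 1 of 4 at 24 h, so those means have no order. Mean Serpina3n levels were 8.32, 8.56, 10.02 and 11.47, higher at each later time, whereas Lcn2 (7.16, 8.04, 10.24 and 10.10) was level between 8 and 24 h. Fkbp5 (8.45, 8.41, 9.33 and 8.25) had its highest mean at 8 h. Plin4 (8.01, 7.30, 8.79 and 8.66) and Mcm4 (8.60, 8.36, 8.97 and 8.89) had their lowest means at 2 h, below sham. So did Gata2 (6.81, 6.23, 7.34 and 6.95), Lrg1 (7.10, 6.50, 7.80 and 8.58) and Sdcbp2 (6.37, 5.61, 6.82 and 6.82), and also Ccl17, Ly6c1, Sox18 and Psma7. Of these genes with their lowest mean at 2 h, only Sdcbp2 and Psma7 differed between 2 h and sham (adjusted p = 0.0461 and 0.0411 in limma). The others did not pass, from 0.0651 for Gata2 to 0.428 for Ccl17, so a return from below sham was not shown for them. All were named for a step that uses the same 2 h arrays, a choice that favours low 2 h means. Other named rises, such as Lcn2, Serpina3n and Angptl4, had 2 h means above sham.

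**Figure D3:**
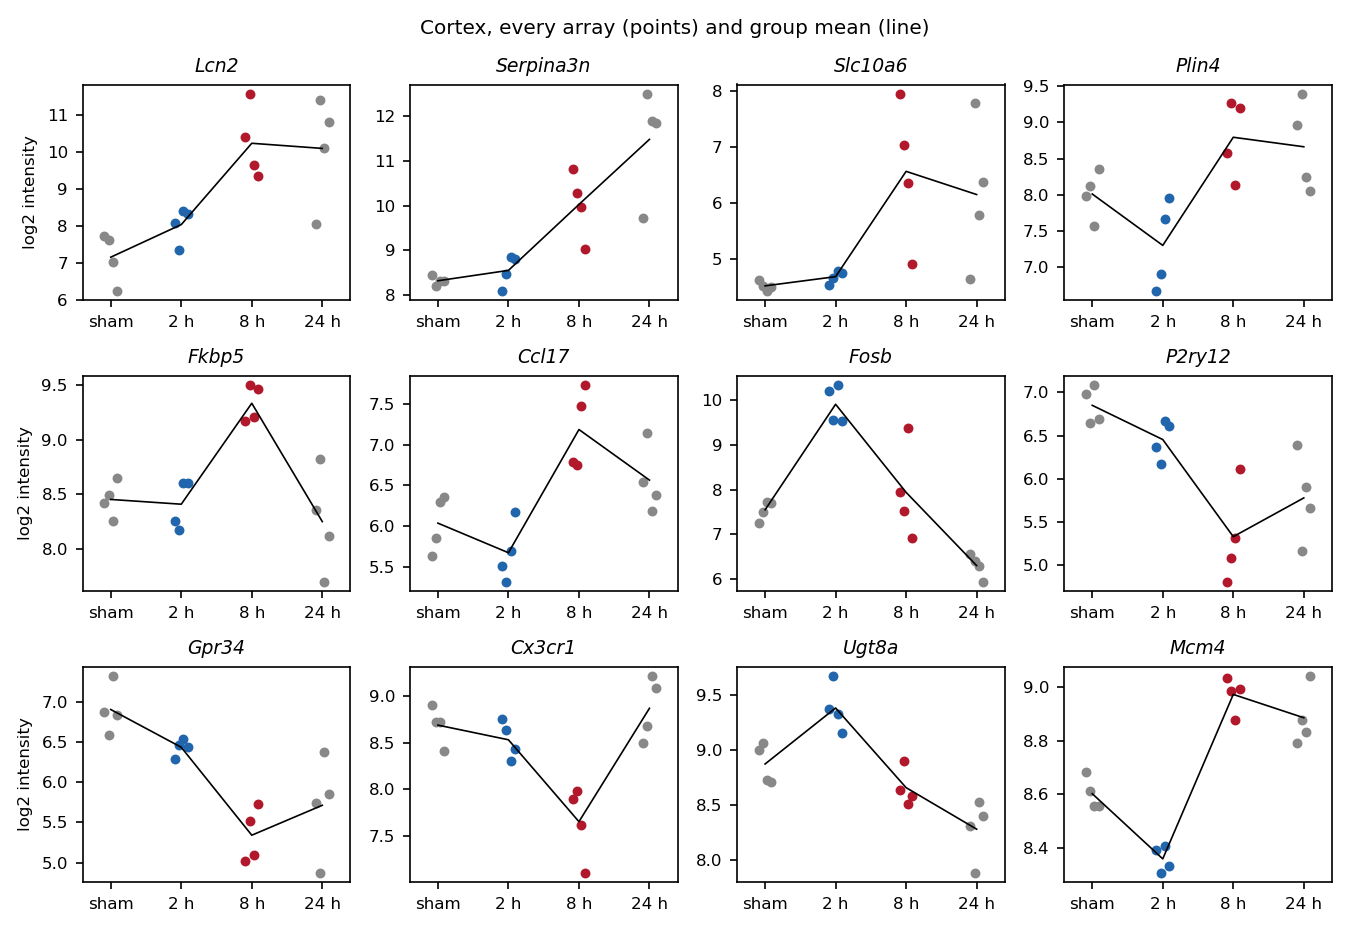
Normalized log2 intensity of 12 named genes on every cortex array (points) in sham, 2 h, 8 h and 24 h groups of 4 arrays, with a line through the group means. The 2 h arrays are blue, the 8 h arrays red and the others grey. Fosb has its highest mean at 2 h, Fkbp5 at 8 h and Serpina3n at 24 h, and Cx3cr1 has its lowest at 8 h.

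The same step in striatum, on 8 other arrays, called 145 genes (1.53%). The labels do not say whether cortex and striatum arrays came from the same animals. Both regions also shared the normalization and the fit, so the striatal step is not an independent repeat. Of these 49 were called in cortex too, in the same direction for 49 of 49, which is 17.6% of the cortical and 33.8% of the striatal calls. Among the 278 cortical calls 273 (98.2%) had the same sign in striatum, against 6724 of all 9475 genes (71.0%). The test of the difference itself, striatal minus cortical step, called 0 genes (0.0%) with limma, with 361 at an unadjusted p below 0.05, and its smallest adjusted p was 0.587, for Zbtb7c, a zinc finger protein (0.96 in cortex and -0.09 in striatum). No gene was therefore shown to step differently in cortex.

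Named genes called in both regions included Plin4 (1.49 in cortex and 1.59 in striatum), Lrg1 (1.30 and 1.44), Fkbp5 (0.92 and 0.87), Ly6a (1.11 and 0.93), Itgad (1.44 and 1.26), Serpina3f (1.31 and 1.19), Cx3cr1 (-0.88 and -1.07) and Ugt8a (-0.72 and -0.99). Others had smaller striatal differences that did not pass there, such as Lcn2 (2.20 and 1.49, adjusted p = 0.114 in striatum), Fosb (-1.97 and -0.95, adjusted p = 0.272), P2ry12 (-1.12 and -0.55, adjusted p = 0.257) and Bmp3 (-1.07 and -0.08, adjusted p = 0.863), and for these too the difference between regions did not pass. Striatal Bmp3 means were 4.82 at 8 h and 4.91 at 2 h, below the lowest detected level of those arrays (5.63 to 5.83). A fall of Bmp3 could therefore not be seen in striatum. Of 28 glucocorticoid response genes 5 rose and 0 fell in striatum, and of 33 homeostatic microglia genes 2 fell and 0 rose. Over all 9475 genes 68 rose and 77 fell in striatum.

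**Figure D4:**
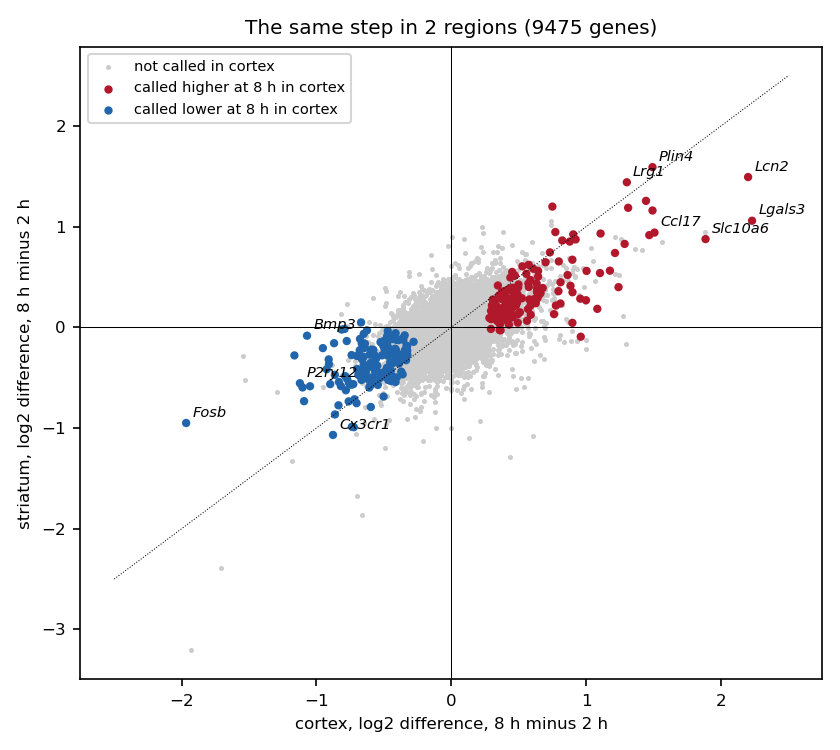
Log2 difference, 8 h minus 2 h, in cortex (horizontal axis) and in striatum (vertical axis) for 9475 genes, with a dotted line where both are equal. Red points are genes called higher and blue points genes called lower at 8 h in cortex, and grey points the rest. Of the 278 coloured points 273 lie in the quadrants where both regions have the same sign.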

How the data were processed

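RNA from 32 brain samples was measured with Illumina bead arrays (MouseRef-8 V2). The deposited profiles hold a mean bead intensity per probe, not normalized, and a detection value, a fraction of 0 to 1 that equals 1 minus the detection p, both exported by the authors from BeadStudio 3.3.7, per the file headers. The authors' processed values for the whole series were deposited on a linear scale as a ratio of each array over its region's sham average, as the values show. They followed a scaling between arrays that is not given in the sources used here. Separate whole-series intensities, not normalized, matched the profiles' 25697 rows only with the replicate numbers mirrored. The processed values were read with the same mirrored numbers, and the numbers of the profiles are used.

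Intensities were corrected and quantile normalized with neqc (offset 16, limma 3.58.1, R 4.3.3) over 32 arrays, giving log2 intensities. A probe was kept if its detection p was below 0.01 on 4 or more arrays (12758), and 1 probe per gene, that with the highest mean, entered a limma fit of 8 groups (9475 genes, Benjamini-Hochberg adjustment over all of them). Genes were named through RefSeq, 23876 probes by accession. The fit was tested on simulated data.

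The array codes place same-numbered arrays of a region on 1 slide. Deviations from the group means of same-numbered 8 h and 2 h cortex arrays correlated at 0.0353 to 0.355. Those of differently numbered arrays correlated at -0.391 to 0.162, so the slide block is an alternative. The text names the 15 highest and 15 lowest called genes whose arrays did not overlap, up to 4 called members per list, and Gpx1. For the highest and lowest genes, groups without overlap were thus a condition of naming and are no further support. Other genes given by name, among them list members that did not pass, were chosen after their values were seen. Members and lists were chosen with earlier results of these data known. Alternatives were the slide block, scaling, background, offset, the authors' values, detection filters, fewer arrays in the fit, eBayes settings, array weights, all probes and leaving out each array. No array was left out of the results unless stated. 1 named gene is not reported here.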

Additional observations from a re-analysis of the deposited data

Results flagged for a closer look

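In 106 groups of 4 arrays, the 8 h and 2 h groups of 53 named genes, 4 held an array that stood far from the other 3, measured as its gap to the nearest array over the range of the group. Chance gives such an array in about 1 in 20 groups. Serpina3f had its highest 8 h level on replicate 2 (7.02, gap 0.893 of the range). Angptl4 had its lowest 2 h level on replicate 2 (7.57, gap 0.844), Psma7 on replicate 2 (10.17, gap 0.966) and Ly6a on replicate 1 (9.57, gap 0.941).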

How the results depend on the processing

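The count of 278 called genes was 82 in a fit of the 16 cortex arrays, 55 in a fit of the 8 arrays, 593 without 8 h replicates 2 and 4 (chosen after seeing the data) and 57 to 333 without single arrays. The other alternatives gave 214 to 376, the last with the replicate block, which kept 262 of the 278. The count of 25 genes at 2-fold or more was 10 with no background correction, 12 with an offset of 50, 16 from the authors' processed values, 15 and 13 in the fits of 16 and 8 arrays, 62 without 8 h replicates 2 and 4, and 14 to 49 without single arrays. The region difference called 0 genes, 1 with no filter on detection, and 0 to 0 without single arrays. Of the 52 named genes that passed, 25 and 19 passed in the fits of 16 and 8 arrays and 18 to 47 without single arrays. The 40 called list members became 16 and 12 in those fits, 80 without 8 h replicates 2 and 4 and 11 to 55 without single arrays. Fits with fewer arrays have fewer residual degrees of freedom; the other causes were not tested. No named gene changed direction in any alternative run, but the medians of 12 gene lists changed sign in 26 list and alternative pairs, among them cytokines (0.282, and -0.169 without 8 h replicate 1), choroid plexus (0.163, and -0.043 without 8 h replicate 1) and hypothalamic markers (0.101, and -0.059 without 8 h replicate 2). With the slide as a block Gpx1 had adjusted p = 0.134. Signal near background limits genes such as Slc10a6, Gpr34 and Itga11, detected at 8 h or at 2 h but not at both.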

Other observations

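Genes of amino acid and one-carbon metabolism are given here as values, chosen after their values were seen. Mthfd2, a mitochondrial folate enzyme, had levels of 7.59, 6.82, 6.87 and 6.34 at 8 h, against 5.80, 5.70, 6.22 and 6.45 at 2 h (0.86 ± 0.21, adjusted p = 0.0271 in limma), with 1 pair of arrays overlapping. The transfer RNA synthetase genes Sars and Iars differed by 0.46 ± 0.11 (adjusted p = 0.0190) and 0.51 ± 0.14 (adjusted p = 0.0447), and neither group pair overlapped. Their striatal differences were 0.52 for Mthfd2, 0.10 for Sars and 0.15 for Iars, none of which passed.

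Pnpla2, the triglyceride lipase of lipid droplets, had levels of 9.05, 9.72, 9.41 and 9.97 at 8 h, against 8.53, 8.86, 8.99 and 8.79 at 2 h (0.75 ± 0.19, adjusted p = 0.0279), and differed by 1.20 in striatum (adjusted p = 0.00113). Etv4, a transcription factor downstream of ERK signalling, had levels of 5.86, 5.68, 5.26 and 5.22 at 8 h, against 6.25, 6.42, 6.03 and 5.98 at 2 h (-0.66 ± 0.17, adjusted p = 0.0349).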
